A study of Mus musculus with 2 samples.

Results

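Stretches of the mouse genome that gave RNA from both strands were examined in tissue labelled as subcutaneous adipose tissue, the white fat under the skin. A contig here is an unbroken stretch of one strand covered by sequencing reads. A member is a contig with a score of 0.1 or lower that shares at least 100 bases with a contig on the opposite strand whose score is also 0.1 or lower. The score is the authors' own and has no stated definition. It falls as read bases rise (Spearman rho = -0.996 across all contigs, a description). Of 747944 contigs in the table, 301603 had such a score, and 19905 of these (6.60%) were members, 9946 on the plus strand and 9959 on the minus strand. They formed 11283 overlapping pairs. Members were chosen by score, position and strand, so the values of the contig table are given as a description, with no test.

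The series holds 2 libraries of a single group, numbered as biological replicates 1 and 2, with no treatment and no altered allele named in the labels. Per the labels, C57BL/6J littermates of both sexes were 8 weeks old, their tissue was pooled across sexes, and polyA RNA longer than 200 nt was taken after removal of ribosomal RNA. Libraries kept the strand and were read as pairs of 76 nt. Contigs and splice junctions were deposited for both libraries together on genome build mm9, so a contig has no value per replicate and no replicate error. Gene tables were deposited per library on mm10. Builds were not mixed, so mm9 contigs carry coordinates and no gene names.

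Replicate 1 held 54752739 estimated counts and replicate 2 held 58687668. All 10 white adipocyte markers had at least 1 TPM (a transcript abundance scaled for gene length and library size) in both libraries, and their TPM summed to 19746 in replicate 1 and 42543 in replicate 2. The libraries differed in other markers. Those of smooth muscle (4 of 4 genes at 1 TPM in both libraries) summed to 4294 and 489 TPM, those of gland epithelium (2 of 5) to 629 and 13.5, and those of skeletal muscle (1 of 3) to 206 and 115, with Myh4 listed at 0 in both. A pooled contig therefore mixes libraries of unlike makeup, and how much each gave to a contig was not tested.

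Each strand of DNA can serve as a template, and RNAs copied from opposite strands of one place are complementary where they overlap. Genes that point towards each other can overlap at their 3′ ends (tail-to-tail), where each transcript ends beyond the point where its neighbour ends. Genes that point away from each other can overlap at their 5′ ends (head-to-head), often around a shared promoter, and an antisense RNA can lie wholly inside its sense partner (nested). Such RNAs are known to act on their partner at some loci, and at others they are by-products. In a stranded library, a small share of reads can also be assigned to the wrong strand.

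Sequence of build mm9 was not used here. To show what these arrangements look like, sequences of annotated gene pairs on GRCm38, the build of the gene tables, are given first. The final 30 bases of the coding transcript that reaches farthest 3′ are shown for both genes of 3 tail-to-tail pairs, each read 5′ to 3′ on its own strand, from GENCODE release M21. Ctsa with Pltp and Ilk with Taf10 lead the tail-to-tail pairs by TPM of the lower partner. Thra with Nr1d1 was added by name, so the ends shown are examples only. Capitals mark the polyadenylation signal AATAAA or, failing that, its variant ATTAAA.
Ctsa, plus strand, chr2:164841003-164841032: acttattcaaaagaATTAAAatggctctgc
Pltp, minus strand, chr2:164839518-164839547: accatcaattagaatccatccacccccctc
Ilk, plus strand, chr7:105742896-105742925: ctgtcacAATAAAgtttattatgaaaacag
Taf10, minus strand, chr7:105739393-105739422: ttttgAATAAAaaccgttacctgatttgta
Thra, plus strand, chr11:98768977-98769006: ggttctccataaaaggtatgttgaattgaa
Nr1d1, minus strand, chr11:98767932-98767961: cctgtctcaaatccaatagttcacagctga
Each plus-strand gene ends beyond the point where its minus-strand neighbour ends, so the transcripts cross. AATAAA was found in Ilk and Taf10 and ATTAAA in Ctsa, while the other ends hold neither string in this window. Among 45076 coding transcripts of the basic set, 43.9% hold AATAAA in their final 30 bases and a further 10.4% hold ATTAAA alone.

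The head-to-head arrangement is shown by Rnf167, a ubiquitin ligase gene, and Slc25a11, the mitochondrial oxoglutarate carrier gene, on chromosome 11. Their RefSeq promoter windows (GRCm38.p6) share 295 bases. The plus-strand window chr11:70646985-70647284 is printed with capitals for the 195 bases between the start site of Slc25a11, which reads to the left, and that of Rnf167, which reads to the right.
Rnf167 and Slc25a11: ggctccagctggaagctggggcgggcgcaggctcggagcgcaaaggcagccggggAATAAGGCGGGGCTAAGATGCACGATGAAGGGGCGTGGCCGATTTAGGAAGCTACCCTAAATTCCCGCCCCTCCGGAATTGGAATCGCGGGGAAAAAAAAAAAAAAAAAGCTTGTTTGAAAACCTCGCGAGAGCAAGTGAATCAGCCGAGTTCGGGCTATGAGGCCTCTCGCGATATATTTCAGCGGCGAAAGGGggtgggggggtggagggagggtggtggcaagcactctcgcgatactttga
This window holds 23 CG dinucleotides, against a median of 7 over 32851 promoter windows of 300 bases, of which 21.5% hold 23 or more. TATAAA was found on neither strand of it, and 13.6% of all windows hold it on either strand. Between these start sites the RefSeq transcripts do not overlap. The exons of the GENCODE genes share 189 bases. Rnf167 was at 88.1 and 72.5 TPM in replicates 1 and 2, and Slc25a11 at 113 and 104 TPM. The pair was chosen among leading head-to-head pairs because the promoter windows of both genes were found and shared bases. The start site of the plus-strand gene also had to lie to the right of that of the minus-strand gene. The lack of overlap between the RefSeq transcripts therefore follows from the choice.

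Members were longer and had a somewhat higher median level than the other contigs of the same score range. Their median length was 601 bases (quartiles 354 and 1224), against 456 bases (308 and 723) for the 281698 others. The level is the number of read bases per base of contig divided by 20.9, a constant of the whole table, so a level of 1 stands for about 20.9-fold coverage. The median level of members was 0.610 (quartiles 0.274 and 2.15), against 0.394 (0.221 and 1.63) for the others. The highest level was 2070 among members and 9300 among the others, which are far more numerous. At a level of 100 or more, 6.52% of contigs were members, near the share over all levels. Members made up 6.60% of contigs and held 16.1% of the read bases of all contigs with a score of 0.1 or lower. Their mean length was 1105 bases against 659 for the others, and their mean level 2.84 against 2.82. Read bases grow with length as well as level, so this share is not a measure of level alone. In the plot of level distributions, the curve of members lies below that of the others in the weakest contigs and above it at intermediate levels.

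**Figure D1:**
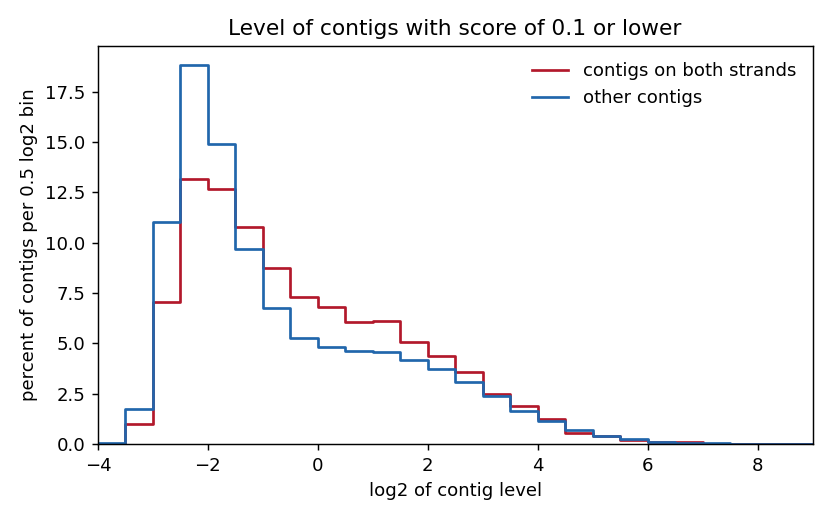
Percent of contigs (vertical axis) in bins of 0.5 of log2 level (horizontal axis), for contigs transcribed from both strands and for all other contigs with a score of 0.1 or lower. Members have a median level of 0.610 and the others of 0.394.

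The share of contigs that were members varied less with level than with length. It was 4.29% below a level of 0.2, reached 8.79% between 1 and 2, and was 6.52% at a level of 100 or more. By length it rose from 5.11% under 300 bases to 10.3% at 1000 to 1999, 17.0% at 2000 to 4999 and 28.0% at 5000 bases or more, where 563 of 2012 contigs were members. A longer contig offers more bases in which an overlap of 100 can fall, so the rule itself is tied to length. Within a length class the level still differed in both directions. Under 300 bases the median level of members was 0.652 against 1.23 for the others, whereas at 1000 to 1999 bases it was 1.06 against 0.736. The contrast under 300 bases is also tied to the rule. No member can be shorter than 100 bases, while the shortest of the others had 12. Because the score falls as read bases rise, a shorter contig generally needs a higher level to pass it.

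**Figure D2:**
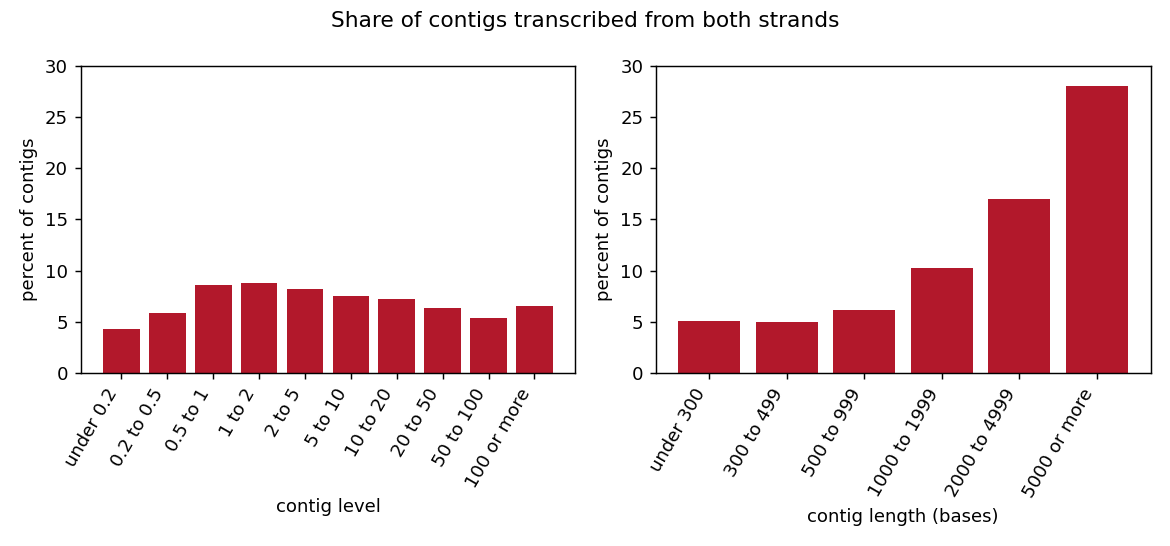
Percent of contigs with a score of 0.1 or lower that were transcribed from both strands (vertical axes), by contig level on the left and contig length in bases on the right. The bars by level stay between 4.29% and 8.79%, while those by length rise from about 5% to 28.0%.

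Most members had 1 partner. This held for 17780 contigs, while 1754 had 2, 371 had 3 or more, and the largest number was 8. The overlaps came to 4945353 bases, with a median of 341 bases and a maximum of 8099. Counted on both strands, they made up 45.0% of the length of the members and 4.76% of the length of all contigs in the score range.

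Chromosomes 19, 11, 7 and 17 had the largest shares of members among the numbered chromosomes, with 9.21%, 8.92%, 8.31% and 8.08% of their contigs. Chromosomes 18, 1 and 13 had the smallest, with 4.50%, 4.82% and 5.01%, and the X chromosome had 5.02%. On the mitochondrial genome, which is transcribed from both strands in full, 2 of 6 contigs were members.

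Levels of the partners were usually unlike. The median ratio of the higher to the lower level was 4.02-fold (quartiles 1.90 and 9.54). In 3077 pairs (27.3%) the partners were within 2-fold, in 2687 (23.8%) they were over 10-fold apart, and in 124 over 100-fold. The median of the lower partner was 0.323 and that of the higher partner 1.87. Both partners reached a level of 1 in 1700 pairs (15.1%) and a level of 10 in 77. The higher partner was on the plus strand in 5676 pairs and on the minus strand in 5607.

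**Figure D3:**
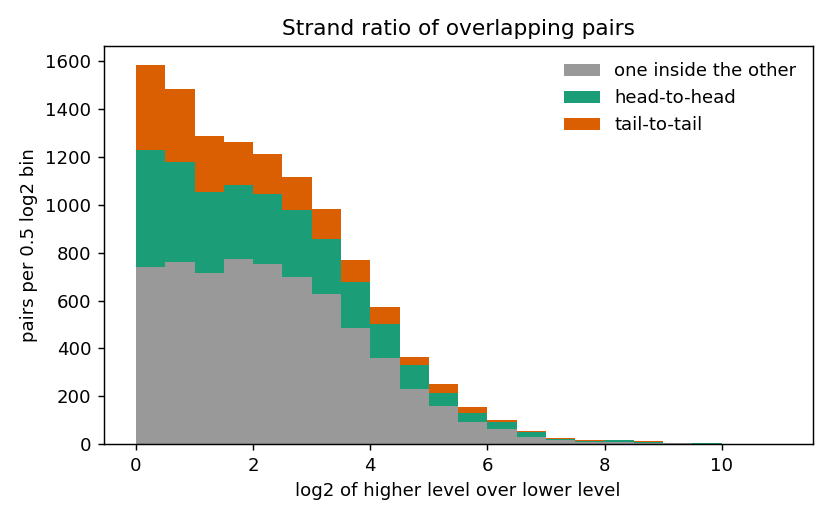
Number of overlapping pairs (vertical axis) in bins of 0.5 of the log2 ratio of the higher to the lower level (horizontal axis), coloured by arrangement. Pairs are most numerous near equal levels, and the median ratio is 4.02-fold.

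Strong contigs had a partner about as often as all contigs in the score range (6.60%). Among 506 contigs with a level of 100 or more, 33 (6.52%) had an opposite-strand partner of score 0.1 or lower, each time the weaker of the pair, at a median of 0.376% of their own level. Among 934 contigs with a level of 50 to 100, 49 (5.25%) had a weaker partner, at a median of 0.793%. The corresponding percentages were 7.13% for the 651 higher partners with a level of 10 to 20 and 25.8% for the 1806 with a level of 1 to 2. The lowest level of any contig in the score range was 0.069, so a weak contig cannot show a small percentage. The share of reads assigned to the wrong strand was not tested.

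Nested pairs were the most frequent arrangement, with 6545 of 11283 (58.0%). The shorter, enclosed contig was the lower one in 76.3% of them. Head-to-head overlaps numbered 2950 (26.1%) and tail-to-tail overlaps 1788 (15.8%). A contig is often an exon or a fragment of a transcript, so these classes describe contigs and not whole genes. Tail-to-tail partners were the closest in level, with a median ratio of 2.83-fold, against 3.64-fold head-to-head and 4.55-fold for nested pairs. Their median lower levels were 0.288, 0.302 and 0.344. The upper ends of these distributions had another order, with 90th percentiles of the lower level of 2.53 for tail-to-tail, 1.32 for head-to-head and 1.38 for nested pairs.

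Splice junctions, which the rule did not use, come from the same reads as the contigs, so a deeper contig has more reads in which a junction can be seen. Junctions with a score of 0.1 or lower numbered 146068 of 480876. Among members, 1995 (10.02%) had a junction end of their own strand within 5 bases of a contig end, against 17.1% of all contigs in the score range and 17.6% of the others. A junction end of the other strand lay within 5 bases of a contig end in 1410 members (7.08%), against 0.593% of all contigs in the score range and 0.135% of the others. Counting junction ends anywhere in the contig, 7769 members (39.0%) held one of their own strand, against 37.9% of all. Those of the other strand were held by 4981 (25.02%), against 1.88% of all. Other-strand junctions are tied to overlap by construction, because a contig that overlaps an exon of the other strand can cover its ends.

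Within pairs, the higher partner was the spliced one far more often than the lower. The higher partner held a junction end of its own strand in 67.8% of pairs and the lower partner in 13.4%, while 41.2% of lower partners held junction ends of the other strand. In 6514 pairs (57.7%) only the higher partner held junction ends of its own strand, in 380 (3.37%) only the lower did, and in 3256 (28.9%) neither did. The shares by level ratio are a description, because the ratio also orders the depth. From the lowest to the highest ratio class the median higher level went from 0.473 to 8.33 and the median lower level from 0.340 to 0.251. Among pairs within 2-fold, 35.2% of higher and 20.4% of lower partners held a junction end of their own strand. Among pairs over 16-fold apart the shares were 95.6% and 5.69%.

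**Figure D4:**
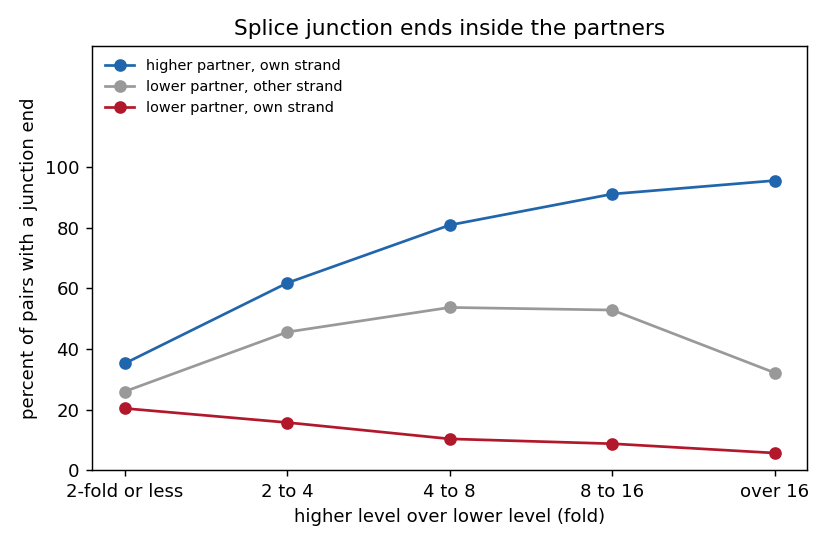
Percent of pairs in which a partner held a splice junction end (vertical axis), by the ratio of the higher to the lower level (horizontal axis), for the higher partner on its own strand and the lower partner on its own and on the other strand. The higher partner goes from 35.2% to 95.6%, and the lower partner on its own strand from 20.4% to 5.69%.

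Some lower partners began and ended where junctions of the other strand did. In 553 pairs (4.90%) both ends of the lower contig lay within 5 bases of junction ends of the other strand. Their lower contigs had a median length of 150 bases and a median level of 0.657, and the median ratio in these pairs was 3.49-fold. Contigs this short generally need a higher level to pass the score, which falls as read bases rise. At least 1 contig ended on a junction of the other strand in 1447 pairs (12.8%). Without those pairs, 17199 members were left and the median ratio was 4.10-fold. The part of wrongly assigned reads in these pairs was not tested.

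In 1133 pairs (10.04%) both partners held junction ends of their own strand, anywhere in the contig and not only in the shared bases. The names of the junctions carry 2 read numbers, which sum to the total in all 480876 junctions and are not tied to a library by any label. In 1094 of these pairs both partners held a junction with reads under both numbers. The share of such pairs was 17.1% among tail-to-tail overlaps (305 pairs), 12.1% among head-to-head (358) and 7.18% among nested pairs (470). They had higher lower partners than the rest, with a median level of 1.58 against 0.295, and a smaller median ratio, 3.08-fold against 4.15-fold. Their median overlap was 486 bases. A junction is more readily seen in a deeper contig, so the higher level of their lower partners is tied to how these pairs were chosen. A longer contig also offers more bases for a junction end. The part of length in the shares by arrangement was not tested.

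The pairs strongest on both strands were found by ranking on the level of the lower partner. Of the 10 leading pairs outside the mitochondrial genome, 5 were tail-to-tail and 5 nested. All 5 tail-to-tail pairs had junctions on both strands. On chromosome 12, the contigs 104674554 to 104680784 (plus, level 48.9) and 104679217 to 104681998 (minus, level 143) shared 1568 bases. They held 13 and 20 junctions of their own strands, the busiest with 11714 and 43740 reads. The 2 read numbers in the junction names were 3637 and 8077 on the plus strand and 19376 and 24364 on the minus strand. Each contig thus held a junction of its own strand with reads under both numbers.

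On chromosome 2, the plus contig 164661864 to 164666596 enclosed the minus contig 164663183 to 164666220, and the levels were 37.6 and 39.1. They shared 3038 bases, and over their whole lengths they held 9 and 6 junctions of their own strands, with 5010 and 5072 reads on the busiest. Near-equal levels also marked a tail-to-tail pair on chromosome 17, where 25965977 to 25969189 (plus, 32.2) and 25966879 to 25972608 (minus, 31.9) shared 2311 bases and their busiest junctions had 1259 and 1356 reads. In that pair, 1 end of the plus contig lay at a minus-strand junction end. On chromosome 9, 108471981 to 108475680 (plus, 25.4) and 108474642 to 108479757 (minus, 37.8) shared 1039 bases, with 13 and 6 junctions. In each of these 3 pairs both contigs held junctions of their own strand and the levels were within 2-fold.

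A further tail-to-tail pair on chromosome 2 was the most extended of the 10. The plus contig 26440472 to 26452033 had a level of 22.7 and the minus contig 26445189 to 26461324 a level of 65.3. They shared 6845 bases and held 21 junctions each, the busiest with 3056 and 32368 reads. The smallest overlap in this group, 115 bases, was also on chromosome 2, between 150655981 to 150658276 (plus, 46.5) and 150658162 to 150660202 (minus, 21). There the busiest junctions had 981 and 857 reads. On chromosome 11, the plus contig 98629378 to 98630628 (level 34.3) lay inside the minus contig 98629239 to 98636708 (39.5). It held 2 junctions of its own strand, with up to 329 reads, against 8 on the minus strand with up to 1552.

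The other 3 leading pairs were of another kind. Each had a short plus contig with no junction of its own strand inside a longer, spliced minus contig of nearly the same level. On chromosome 14, the contig 35186432 to 35186581 (150 bases, level 61.3) lay inside 35183457 to 35187612 (level 70.7), and 1 of its ends was within 5 bases of a minus-strand junction end. On chromosome 16, 85043821 to 85043990 (170 bases, 24.4) lay inside 85042933 to 85044156 (29.6), and on chromosome 9, 30976293 to 30976503 (211 bases, 24.6) lay inside 30973417 to 30976503 (20.1). In both of these cases, both ends of the short contig were at minus-strand junction ends. The busiest minus-strand junction of the chromosome 14 pair had 820 and 10080 reads under its 2 numbers, the most unequal split among the busiest junctions of the 10 pairs.

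The longest overlap, 8099 bases, was a head-to-head pair on chromosome 17, 29833452 to 29842921 (plus, 5.99) and 29833047 to 29841550 (minus, 1.61), with 8 and 3 junctions. After the chromosome 2 pair with 6845 bases came 6794 bases on chromosome 11, where a minus contig from 3028793 to 3035586 (4.70) lay inside a plus contig from 3026802 to 3036218 (28.3). These contigs held 9 and 11 junctions of their own strands. The remaining 2 were on chromosome 19. A head-to-head pair with levels of 1.54 and 0.836 shared 17192530 to 17198971 and had 1 junction on each strand, with 19 and 15 reads. A tail-to-tail pair with levels of 2.67 and 16.9 shared 29094898 to 29101151.

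Pairs closest to equal level were sought among those with a lower level of at least 1.46, the 90th percentile of lower levels. On chromosome X, 72478428 to 72479519 (plus) and 72479122 to 72479530 (minus) both had a level of 1.74, and neither held a junction. On chromosome 11, 115659023 to 115660648 (plus, 15.7) and 115660279 to 115664826 (minus, 15.8) met tail-to-tail with 508 and 500 reads on their busiest junctions. The other 3 were head-to-head pairs on chromosome 1 (1.52 and 1.53, sharing 134 bases) and chromosome 15 (5.02 and 4.98, sharing 220 bases) and a nested pair on chromosome 8 (6.59 and 6.64, sharing 1013 bases).

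At the edges of the rule, values were as follows. Pairs with a partner exactly at the score of 0.1 (969 pairs) had a median lower level of 0.177 and a median ratio of 4.44-fold. Those with a partner at the next score, 0.11, which are not members (513 pairs), had 0.166 and 3.86-fold. Pairs that shared 100 to 109 bases (285) had a median lower level of 0.544, and those that shared 90 to 99 bases (320), also outside, had 0.617.

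Gene tables gave a separate view with a value per library. In GENCODE M21 on GRCm38, 3015 pairs of genes on opposite strands outside the mitochondrial genome shared at least 100 exonic bases and were measured in both libraries. Exons of all annotated transcripts of a gene were merged for this, while TPM is given per gene. In 861 pairs (28.6%) both partners had at least 1 TPM in both libraries. Of the 5541 genes in such pairs, 2828 (51.0%) reached that level, against 29.9% of all 42462 matched genes. Tail-to-tail pairs were the most often expressed, in 462 of 1039 cases (44.5%), followed by head-to-head pairs with 324 of 986 (32.9%) and nested pairs with 75 of 990 (7.58%). Pairs of 2 coding genes made up 694 of the 861, out of 1103 annotated pairs of this kind. Pairs of a coding gene and a long noncoding RNA made up 152, out of 1578. The 42462 matched genes were counted whatever their type, and the part of gene type in these shares was not tested. No source used here says whether reads were counted by strand, so reads from the shared bases may not be told apart and both values of a pair are uncertain to that extent. Whether the transcripts that hold the shared bases were expressed was not tested.

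The strongest annotated pair was Ctsa, which encodes the lysosomal protease cathepsin A, and Pltp, which encodes phospholipid transfer protein. Ctsa (chromosome 2, 164832873 to 164841032, plus strand) was at 374 and 292 TPM in replicates 1 and 2 (333 ± 58.3, SD, n = 2). Pltp (164839518 to 164857711, minus strand) was at 436 and 339 TPM (387 ± 68.5). The genes shared 495 exonic bases at their 3′ ends. Both were higher in replicate 1, by nearly the same factor.

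Ilk, the gene of integrin-linked kinase, and Taf10, a subunit of the general transcription factor TFIID, had the longest overlap of the 11 leading pairs, 2106 exonic bases on chromosome 7. That length counts the exons of all annotated transcripts, and TPM per gene does not show which of them were expressed. Ilk was at 374 and 220 TPM and Taf10 at 305 and 251 TPM. The ribosomal protein gene Rpl28 (435 and 307 TPM) and the ubiquitin-conjugating enzyme gene Ube2s (184 and 117 TPM) met tail-to-tail over 183 bases. Both genes of each pair were lower in replicate 2, as were 9604 of all 12704 genes with at least 1 TPM in both libraries (75.6%).

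Regulators of transcription were among the leading pairs. Thra, which encodes the thyroid hormone receptor alpha, and Nr1d1, which encodes the clock repressor REV-ERB alpha, are a textbook case of tail-to-tail overlap and shared 263 exonic bases on chromosome 11. Thra was at 118 and 88.5 TPM and Nr1d1 at 120 and 221 TPM, so their order was near equal in replicate 1 and Nr1d1 was the higher one in replicate 2. Cebpb, a transcription factor of adipocyte differentiation, overlapped the 5′ end of Tmem189, an enzyme of plasmalogen synthesis, by 312 bases. Cebpb was at 137 and 92.4 TPM and Tmem189 at 99.4 and 126 TPM. In this pair the higher gene changed between the libraries.

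Head-to-head pairs with Cox4i1, a subunit of cytochrome c oxidase, and Fkbp8, a mitochondrial chaperone, varied little. Cox4i1 was at 1047 and 1121 TPM and its neighbour Emc8, of the endoplasmic reticulum membrane complex, at 91.8 and 86.1 TPM. Fkbp8 was at 352 and 319 TPM and Kxd1 at 84.1 and 86.8 TPM. The other leading tail-to-tail pairs were Ciz1 (221 and 105 TPM) with 1110008P14Rik (193 and 279 TPM), Jmjd8 with Stub1, and the cell cycle kinase gene Cdk4 with Tspan31. Cdk4 differed most between the libraries, with 441 and 108 TPM, while Tspan31 was at 107 and 80.6 TPM. A nested pair was Mrps34, a mitochondrial ribosomal protein gene (173 and 103 TPM), inside Mapk8ip3 (123 and 75.1 TPM).

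**Figure D5:**
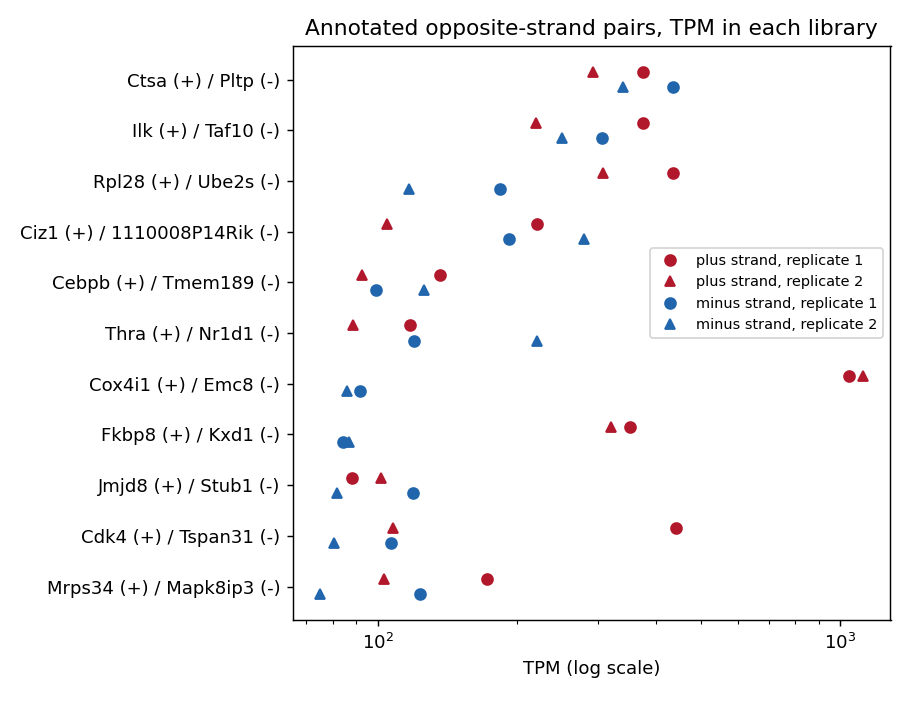
TPM (horizontal axis, log scale) of both partners of the 11 annotated opposite-strand pairs with the highest TPM of the lower partner, with circles for replicate 1, triangles for replicate 2, red for the plus-strand gene and blue for the minus-strand gene. Partners of the Cox4i1 and Fkbp8 pairs are well apart in both libraries, while those of Thra and Nr1d1 nearly coincide in replicate 1 only.

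Across the 861 pairs, the median ratio of the higher to the lower TPM was 3.34-fold in replicate 1 and 3.51-fold in replicate 2. The same partner was the higher one in both libraries in 763 pairs (88.6%). Both partners had a lower TPM in replicate 2 in 522 pairs, both had a higher one in 51, and the partners went opposite ways in 286. Most single genes were also lower in replicate 2. This held for 1252 of the 1620 genes in these pairs and for 75.6% of all genes with at least 1 TPM in both libraries. The counts of pairs therefore do not show that partners moved together. The median log2 ratio of replicate 2 to replicate 1 was -0.48 over the 1620 genes in these pairs and -0.53 over all genes with at least 1 TPM in both, which differ by less than 0.1.

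Genes named as the opposite strand of another gene, with symbols that end in os, form a list of 290. Of these, 37 (12.8%) had at least 1 TPM in both libraries, against 29.9% of all matched genes, and 121 had a count of 0 in both. The matched genes were counted whatever their type, and the part of gene type in this contrast was not tested. Sense partners of the os genes reached 1 TPM in both libraries in 168 cases (57.9%). Both did in 29 cases, the os gene without its sense partner in 8, and the sense gene without its os partner in 139. In 15 of the 37 the os gene had the higher TPM of the pair in both libraries. The exons of the 2 genes shared at least 100 bases in 125 of the 290 pairs and none in 129. Some of those without shared exons, such as Sox6os and Rab26os, lie within the span of the sense gene.

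Wdr83os, which in spite of its name is a conserved protein-coding gene, led the list with 128 and 120 TPM (124 ± 5.84, SD, n = 2). Wdr83 on the other strand was at 30.8 and 24.7 TPM. Rab10os was at 62.0 and 34.0 TPM and Rab10, a small GTPase of vesicle transport, at 33.9 and 27.2 TPM. Tmem147os (22.3 and 20.1 TPM) and Ccpg1os (15.5 and 12.1 TPM) were, like Wdr83os, closer between the libraries than Rab10os.

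A few os genes were far higher in replicate 1, as were their sense partners. Hoxa11os was at 94.1 and 5.30 TPM and Hoxa11, a developmental transcription factor of limb and reproductive tract, at 88.8 and 1.76 TPM. Foxl2os had 3225 and 3 counts (49.0 and 0.02 TPM), and Foxl2, a transcription factor of the ovary, had 475 and 0 counts. Smooth muscle and gland epithelium markers were also higher in replicate 1, by the sums given above, and their part in these values was not tested. Ctcflos went the other way, with 7.93 and 30.6 TPM, as did Sox6os with 12.2 and 25.5 TPM. White adipocyte markers were also higher in replicate 2, and their part was not tested. The sense partner Ctcfl was at 0.170 and 0.250 TPM and Sox6 at 2.12 and 2.79 TPM. Rab26os (63.0 and 11.2 TPM) and Epb41l4aos (33.5 and 10.8 TPM) complete the leading 10, and Rab26os rests on 207 and 42 counts.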

How the data were processed

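Contigs and splice junctions were deposited by the authors as pooled mm9 tables, and the sources used here name no aligner or contig caller. The deposited contig signal (level) is read bases per base divided by a constant (found from the values), and the deposited score has no stated definition. The deposited junction counts are reads over both libraries. Per the deposited notes, gene tables used mm10 and GENCODE M4. They hold the authors' expected counts, TPM and FPKM.

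Overlaps, arrangements and junction ends were computed with Python 3.11.15, numpy 2.4.6 and pandas 2.3.3, and were tested on simulated intervals. Junction ends were matched within 5 bases. Gene identifiers matched GENCODE M21 for 42462 genes and 884 were left out. No p-values were computed, because there is 1 group and the contig tables are pooled. The regions named are the 10 pairs of highest lower level, the 5 longest overlaps and the 5 pairs closest to equal level. The genes named are the 12 annotated pairs of highest lowest TPM, of which the first 11 are reported here, and the 10 os genes of highest mean. Members and lists were chosen with earlier results of these data known. Labels call the replicates biological and give them a shared donor record, without saying which animals each came from.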

Additional observations from a re-analysis of the deposited data

How the results depend on the processing

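No paired analysis was possible because the series holds a single group. Contig values could not be recomputed without a library, since the table is pooled. With an overlap of 1 base, the share of members was 7.49%, their median level 0.661 and length 567 bases, and 17.9% of pairs were tail-to-tail and 54.4% nested. With 200 bases the share was 5.20%, the median level 0.550, the length 699 and the ratio 4.24-fold. With 500 bases, 5468 members were left instead of 19905 (1.81%), with a median level of 0.934, a length of 1156, a ratio of 4.49-fold, 17.2% tail-to-tail and 55.9% nested. A score of 0.05 gave a share of 6.10%, a level of 0.856, a length of 731, 16.8% tail-to-tail and 54.9% nested. A score of 0.01 gave 6403 members (4.95%), a level of 1.76, a length of 1093, a ratio of 3.71-fold, 19.0% tail-to-tail and 47.4% nested. Contigs at or above the median level gave 8165 members (5.41%), a level of 1.52, a length of 804, a ratio of 3.43-fold, 13.7% tail-to-tail and 61.6% nested. Nested pairs were the most frequent class in each of these settings.

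For junction support, exact matches of contig and junction ends gave 3.09% of members on their own strand and 3.91% on the other, so the order of the strands turned. Within 20 bases these were 12.7% and 8.79%, and with junctions of any score 14.4% and 8.45%.

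The following 3 settings were chosen after seeing the data. Contigs of any score gave 48520 members (6.49%), a level of 0.265, a length of 352, a ratio of 4.72-fold, 11.7% tail-to-tail and 71.5% nested. Without pairs that end on a junction of the other strand, the share was 5.70%, the level 0.528, the length 651, and 17.3% of pairs were tail-to-tail and 53.7% nested. With junction ends anywhere in the contig, 39.0% of members had support on their own strand and 25.02% on the other.

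Annotated pairs with both partners expressed numbered 861, but 471 at 5 TPM and 312 with an exon overlap of 500 bases, and 898 to 1040 when 1 replicate was left out. Expressed os genes numbered 37, but 13 at 5 TPM, and 46 without replicate 1 and 56 without replicate 2. Stricter settings leave fewer contigs and genes by construction, and further causes were not tested. The score threshold bears on the weak side, and the lowest level it kept was 0.069. Because the score falls as read bases rise, the lowest level that passes depends on contig length. With contigs of any score the median level of both-strand contigs was 0.265 instead of 0.610.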

Other observations

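Among annotated pairs of a coding gene and a long noncoding RNA, the examples here were chosen after their values were seen. The lncRNA Gm17251 and Rab11b, a small GTPase of recycling endosomes, overlapped head-to-head by 329 exonic bases on chromosome 17, with Gm17251 at 17.0 and 26.8 TPM in replicates 1 and 2 and Rab11b at 344 and 270 TPM. The antisense gene 2510046G10Rik (17.6 and 19.9 TPM) and Sgf29, a subunit of histone acetyltransferase complexes (40.5 and 31.2 TPM), shared 169 bases at their 5′ ends on chromosome 7. Gm16536 (13.4 and 11.7 TPM) lay inside Bace1, the beta-secretase gene (46.1 and 22.1 TPM), with an exonic overlap of 135 bases on chromosome 9. The gene types are those of the annotation, which lists Cct6a and Ptpmt1, known as protein-coding genes, as processed transcripts, so the 152 expressed pairs of this class include some of coding genes.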
